A study of Homo sapiens with 8 samples.

Results

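Coagulation genes were examined in HepG2, a human hepatocellular carcinoma cell line that is widely used as a hepatocyte model. The genes were 36 that encode fibrinogen, clotting factors, their inhibitors, the proteins of fibrinolysis, and the enzymes and receptors that modify clotting factors and carry them towards secretion. A listed gene was analysed where at least 10 counts were present in at least 2 of the 8 libraries, which left 35 of the 36, among 13943 genes tested in all. The 35 passed this filter in the 2D-primed libraries alone and in the 3D-primed libraries alone, so none entered through its high group only. The gene below the filter was F9, which encodes factor IX, with 1, 6, 2 and 1 counts in the 2D-primed libraries and 6, 5, 1 and 0 counts in the 3D-primed libraries. It was not tested. The tested genes with the fewest counts were F8, with 8 to 20 in each library, and HRG, with 8 to 29.

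The study asked whether growth in 3D changes the structure and function of these cells. Wild-type HepG2 cells from a pool grown in 2D were kept for 8 days either on flat culture plastic (2D-primed, 4 libraries) or on Alvetex Strata, a porous polystyrene scaffold (3D-primed, 4 libraries). Both groups were grown in minimal essential medium with non-essential amino acids, glutamine and foetal bovine serum, and were released with trypsin before RNA extraction. The paper states that scaffolds were seeded at high density to favour layering, and gives a different seeding density for the 2D plates. Substrate and seeding density therefore cannot be told apart here. All libraries come from a single cell line, and the labels do not say whether the replicates were separate cultures, so the p-values measure the spread between these libraries, which may be technical. The libraries held 21599630 to 27844077 estimated read pairs. Levels are given as CPM, the count of a gene scaled to a common library size after TMM normalisation, and changes as log2 fold changes of 3D-primed over 2D-primed cells with their standard error (SE). A gene was called higher or lower at a Benjamini-Hochberg adjusted p below 0.05 in the quasi-likelihood test of edgeR, adjusted over all genes tested.

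Blood coagulation runs as a chain of proteases that ends in thrombin, which cuts fibrinogen into fibrin, while factor XIII crosslinks the clot and plasmin dissolves it. Most of the plasma proteins of this system are made by hepatocytes, and their RNA is a common measure of hepatocyte function. Several factors become active only after vitamin K-dependent carboxylation of their glutamate residues in the endoplasmic reticulum. Antithrombin, tissue factor pathway inhibitor and protein C hold the chain in check.

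The hepatocyte identity of the cells was checked with ALB, AFP, APOA1, TTR, SERPINA1 and TF. Together they took 55676 to 60995 CPM after 2D priming and 87595 to 97610 after 3D priming. In 3D-primed cells 5 of the 6 were called higher and SERPINA1 lower, where 32.4% and 31.6% of all genes tested were. Several defining markers of other cell types were at or near 0, with PF4 and PPBP of platelets at 0 in every library, and KDR and TEK of endothelium, COL1A2, DCN and LUM of fibroblasts and PTPRC of leukocytes at 0 to 2 counts. Other markers passed the filter, some of them at low levels. Of 5 endothelial markers 3 were tested. VWF was called higher, with overlapping groups and means of 1.11 CPM after 2D priming and 1.71 after 3D priming. CDH5 was called lower (4.73 and then 1.59 CPM). The endothelial markers summed to 5.54 to 7.68 CPM after 2D priming and 4.20 to 5.71 after 3D priming. Of the 5 fibroblast markers 2 were tested. PDGFRB was called higher (mean 10.7 and then 16.4 CPM) and COL1A1 lower (0.969 and then 0.0703 CPM, the latter from 0 to 3 counts per library). The 5 summed to 10.8 to 12 and then 15.5 to 18.0 CPM. Among the 4 leukocyte markers, LYZ (mean 2168 and then 2642 CPM) and CD14 (1.65 and then 2.83) were called higher and CD68 lower (72.7 and then 34.4). The 4 summed to 2178 to 2262 and then 2426 to 3007 CPM, nearly all from LYZ. The 3 platelet markers, with no call, summed to 0.296 to 0.543 and then 0.325 to 0.467 CPM. Mitochondrial transcripts made up 1.40 to 1.81% of counts after 2D priming and 2.47 to 2.98% after 3D priming. The part of these shifts in the results for coagulation genes was not tested. In bulk RNA, a change in the number of cells that express a gene and a change in RNA per cell cannot be told apart.

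Genes of fibrinogen, plasminogen and the factor XIII B chain gave the largest increases, and their promoters are shown here because they carry the results that follow. The promoter sequences were taken from RefSeq on GRCh38.p14, from 250 bases before to 50 bases after the annotated start of transcription, and are written 5′ to 3′ on the strand of the gene. The positions are chr4:154590693-154590992 on the minus strand for FGA, chr4:154562730-154563029 on the plus strand for FGB, chr4:154612607-154612906 on the minus strand for FGG, chr6:160701943-160702242 on the plus strand for PLG, and chr1:197067211-197067510 on the minus strand for F13B. Capitals mark a match to the binding motif of HNF1, a hepatocyte transcription factor.
FGA: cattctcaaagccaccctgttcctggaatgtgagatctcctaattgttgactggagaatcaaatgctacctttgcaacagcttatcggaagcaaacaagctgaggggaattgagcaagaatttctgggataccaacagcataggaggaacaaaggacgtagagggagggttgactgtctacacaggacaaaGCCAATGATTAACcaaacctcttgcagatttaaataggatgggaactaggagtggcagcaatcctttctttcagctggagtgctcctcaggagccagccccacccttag
FGB: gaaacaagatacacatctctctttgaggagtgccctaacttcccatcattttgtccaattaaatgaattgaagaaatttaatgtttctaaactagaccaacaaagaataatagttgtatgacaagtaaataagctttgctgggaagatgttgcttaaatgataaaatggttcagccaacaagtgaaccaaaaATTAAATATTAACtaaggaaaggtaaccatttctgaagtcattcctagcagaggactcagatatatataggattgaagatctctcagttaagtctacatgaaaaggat
FGG: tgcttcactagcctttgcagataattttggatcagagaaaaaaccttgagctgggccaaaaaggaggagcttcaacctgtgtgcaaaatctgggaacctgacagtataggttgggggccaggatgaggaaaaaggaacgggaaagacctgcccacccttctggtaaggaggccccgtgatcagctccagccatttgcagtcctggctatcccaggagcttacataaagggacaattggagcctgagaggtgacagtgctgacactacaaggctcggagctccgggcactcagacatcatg
PLG: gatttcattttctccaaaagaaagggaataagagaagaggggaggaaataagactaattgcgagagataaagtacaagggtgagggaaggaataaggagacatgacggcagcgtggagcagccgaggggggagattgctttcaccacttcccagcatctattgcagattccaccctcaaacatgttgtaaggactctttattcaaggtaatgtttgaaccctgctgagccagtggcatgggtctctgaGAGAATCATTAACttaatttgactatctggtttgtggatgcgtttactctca
F13B: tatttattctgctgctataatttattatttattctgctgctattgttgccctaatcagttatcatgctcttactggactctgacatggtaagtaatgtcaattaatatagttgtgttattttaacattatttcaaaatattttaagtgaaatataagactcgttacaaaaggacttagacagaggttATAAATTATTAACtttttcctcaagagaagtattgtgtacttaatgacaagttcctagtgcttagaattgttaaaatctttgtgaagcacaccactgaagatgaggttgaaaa

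The HNF1 motif was searched as the arms GTTAAT and ATTAAC with 1 base between them, on both strands, with at most 2 of the 12 letters differing. It was matched in 1.31% of 27305 RefSeq promoters of the same length and in 0.911% of the 10207 that belong to genes tested here. Promoters were held for 31 of the 35 coagulation genes, without FGL1, SERPINC1, PLAT and SERPINF2, and 8 of the 31 had a match (25.8%). In FGA, FGB and F13B the match began 59, 58 and 63 bases before the start of transcription, whereas in PLG it lay across the start. The other 4 were F2, PROC, SERPINA10 and HGFAC, with SERPINA10 the closest to the motif, at 1 differing letter. Over the 35 coagulation genes, 54.3% were called higher in 3D-primed cells and 17.1% lower, against 32.4% and 31.6% of all genes tested. Of the 8 genes with a match, 4 were called higher in 3D-primed cells, 1 was called lower and 3 were not called. FGG, which rose with FGA and FGB, had no match in this window. The part of the motif in these changes was not tested. The motif CTGGGAA, which resembles the site bound by STAT3, a factor of the acute phase response, was found without mismatch on either strand in the promoters of FGB, FGG, F10 and PLG, 4 of the 31 (12.9%), against 11% of all promoters and 11.4% of those of tested genes. An HNF4 motif (CAAAGTCCA, at most 1 letter differing) was found in 7 of the 31 (22.6%), against 7.01% of all promoters and 5.27% of those of tested genes, namely F10, PROZ, F13B, KLKB1, SERPIND1, SERPINA10 and PLAU. A C/EBP motif (TTGCGCAA, at most 1 letter differing) was found in FGA and PLAUR, 2 of the 31 (6.45%, against 5.86% of all promoters and 6.68% of those of tested genes), and TATAAA in F13B and HRG (6.45%, against 12% of all promoters and 5.77% of those of genes tested here). All were searched on both strands, and the only overlap among the matches found was in F13B, where TATAAA starts 1 base before the HNF1 match. A match is a description of letters, not of binding.

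Of the 35 genes, 19 were called higher in 3D-primed cells (54.3%), where 32.4% of all genes tested were, and 6 were called lower (17.1%), where 31.6% of all genes were. Calls in either direction covered 25 of the 35, or 71.4%, against 63.9% of all genes. The median log2 fold change of the 35 was 0.30, against 0.01 over all genes tested. An increase of at least 2-fold was called for 8 genes (22.9%, against 4.86% of all genes), namely FGA, FGB, FGG, F7, F13B, KLKB1, SERPINC1 and PLG. A decrease of at least 2-fold was called for PLAUR alone (2.86%, against 7.01% of all genes). The 4 values of each group lay wholly apart for 23 of the 35 genes, 65.7%, close to the 59.8% of all genes tested. The direction differed between functional groups and also within them. Higher and lower calls were both found among the vitamin K-dependent factors, the carboxylation enzymes and the cofactors and crosslinking genes. The same held for the inhibitors, the fibrinolysis genes and the secretion receptors.

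**Figure D1:**
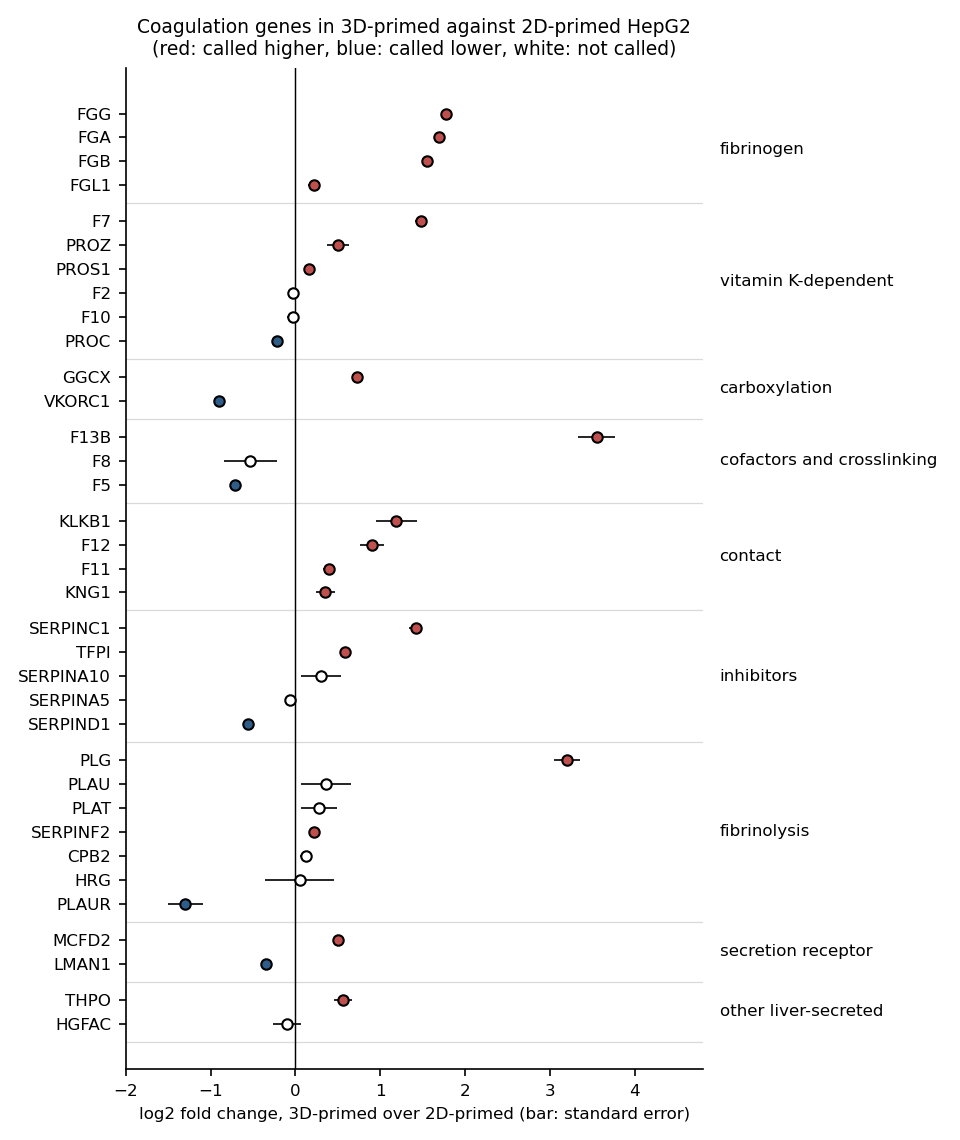
Log2 fold change of 3D-primed over 2D-primed cells (x axis, bar: standard error) for the 35 coagulation genes, grouped by role and ordered by change within a role. Values run from -1.30 for PLAUR to 3.55 for F13B, and 19 genes are drawn in red as called higher, 6 in blue as called lower and 10 in white as not called.

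Together the 35 genes took 0.778 ± 0.00844% of all counts after 2D priming and 1.25 ± 0.0356% after 3D priming (SD, n = 4). Fibrinogen accounted for most of this difference, since FGA, FGB and FGG together rose from 0.193 ± 0.00675% to 0.641 ± 0.0394% of all counts. The other groups moved less. Fibrinolysis genes went from 0.0427 ± 0.00208% to 0.0672 ± 0.00207%, and these groups lie apart. The vitamin K-dependent factors took 0.117% and 0.119%, and the inhibitors 0.25% and 0.255%. Cofactors and crosslinking genes, which F5 dominates, went from 0.0479% to 0.0305%.

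**Figure D2:**
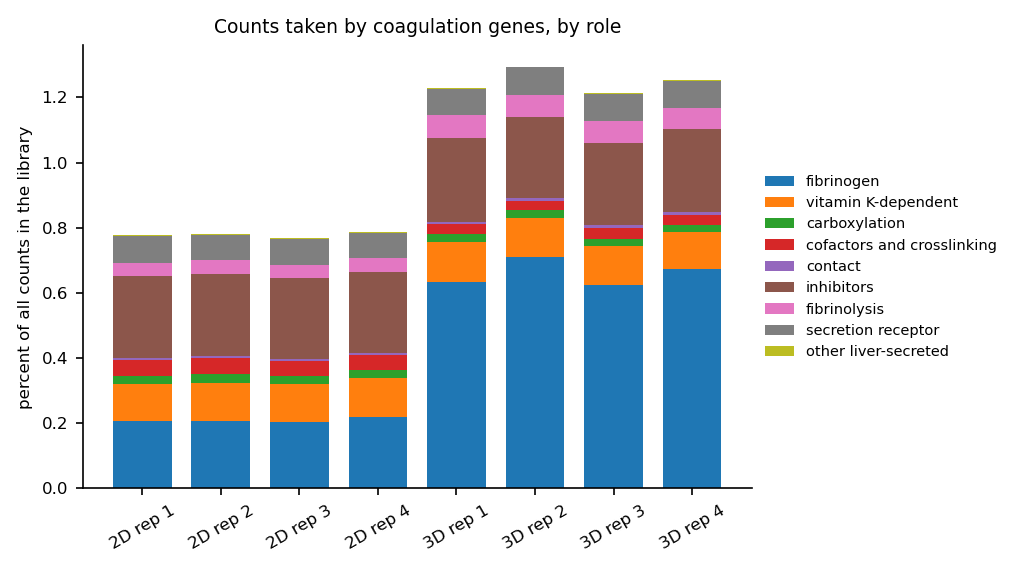
Percent of all counts in each library (y axis) taken by the coagulation genes, stacked by role, for the 4 2D-primed and 4 3D-primed libraries. The whole stack is 0.767 to 0.788% after 2D priming and 1.21 to 1.29% after 3D priming, and the fibrinogen part, FGL1 included, grows from 0.203 to 0.219% up to 0.623 to 0.711%.

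Fibrinogen is a protein of 3 chains, encoded by FGA, FGB and FGG, that are assembled in equal numbers. Their genes lie side by side on GRCh38 in chr4:154563011-154612967. FGA lies 10.3 kb from FGB and 13.4 kb from FGG, with no other protein-coding gene between them. FGA gave 930.4, 977, 916 and 1005 CPM in the 2D-primed libraries and 2946, 3286, 2996 and 3132 CPM in the 3D-primed libraries. FGB gave 232, 246, 243 and 263 CPM, and then 715, 788, 703 and 684 CPM. FGG gave 718, 748, 736 and 772 CPM, and then 2530.4, 2688, 2321 and 2596 CPM. Every 3D-primed library lay above every 2D-primed library in all 3 chains, by 2.94-fold on average for FGB, 3.23-fold for FGA and 3.41-fold for FGG. The adjusted p in edgeR was 7.9e-09 for FGA, 2.2e-08 for FGB and 7.9e-09 for FGG.

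The chains did not rise by quite the same factor. FGB counts per geometric mean of FGA and FGG were 0.284, 0.288, 0.296 and 0.299 after 2D priming and 0.262, 0.265, 0.267 and 0.240 after 3D priming, so that all 3D-primed values were below all 2D-primed values. The difference was -0.18 on the log2 scale (two-sided exact permutation test, p = 0.029, the smallest value 4 against 4 can give, adjusted p = 0.048 over the 5 ratios compared in this way). Per length of transcript, FGA and FGG were also the more abundant chains, at 433 ± 18.8 and 359 ± 11 CPM per kb of exon in 2D-primed cells, against 67.6 ± 3.55 for FGB. The order was the same in 3D-primed cells, at 1399 ± 69.0, 1223 ± 75.1 and 198 ± 12.5 CPM per kb. These levels depend on the length used, as the annotated canonical transcript of FGB has 3641 bases of exon, of which 1473 are coding. With coding length, chosen after the data were seen, FGA exceeded FGB by 2.97-fold after 2D priming and 3.27-fold after 3D priming, in place of 6.42-fold and 7.06-fold. FGL1, a fibrinogen-related protein of the liver, gave 163, 156, 169.8 and 167 CPM after 2D priming and 187, 212, 200.4 and 163 CPM after 3D priming. The groups overlap, and its log2 fold change of 0.22 (edgeR, adjusted p = 0.022) lost its call without 2D-primed replicate 2 or without 3D-primed replicate 2 or 3, with adjusted p in edgeR of 0.063, 0.079 and 0.063.

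**Figure D3:**
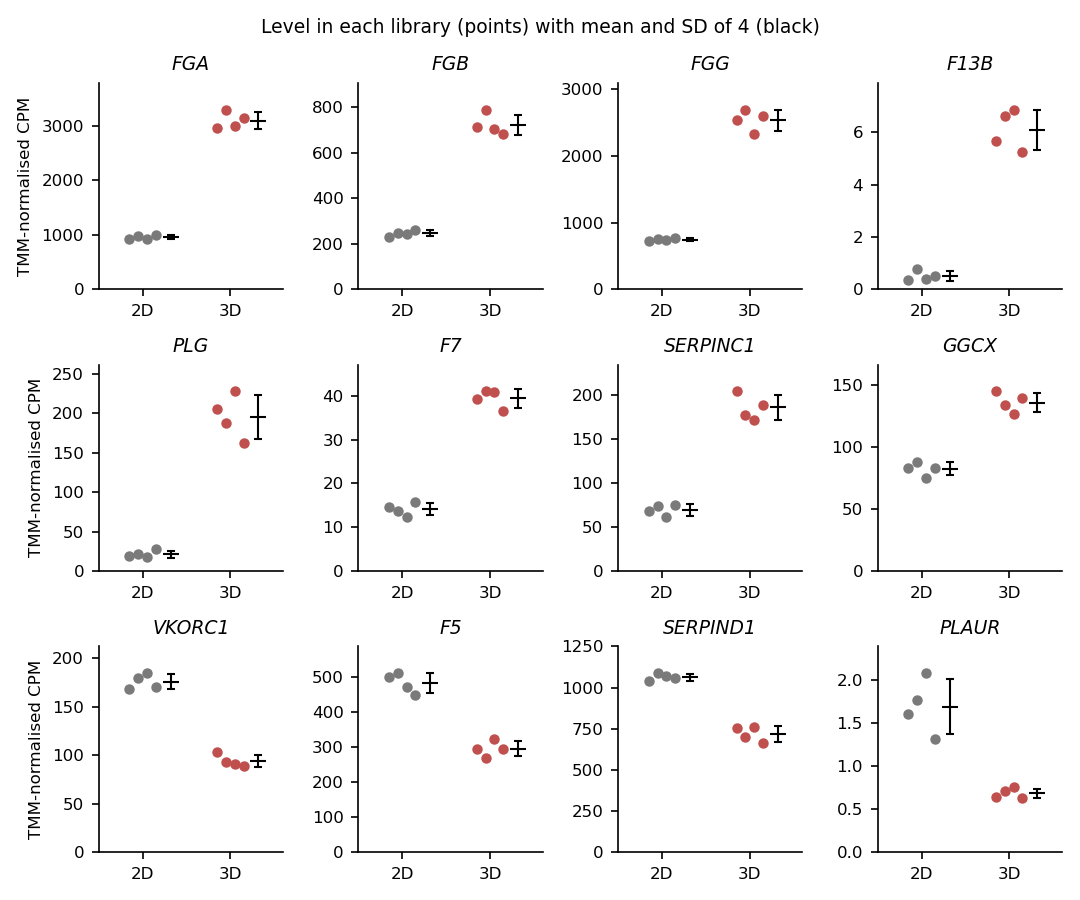
TMM-normalised CPM (y axis, from 0) of 12 coagulation genes in each of the 4 2D-primed (grey) and 4 3D-primed (red) libraries, with the mean and SD of each group in black. The groups do not overlap in any of the 12 panels, with 3D-primed cells higher in the first 8 panels and lower for VKORC1, F5, SERPIND1 and PLAUR.

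The vitamin K-dependent factors did not move together. F7 encodes factor VII, which binds tissue factor to start coagulation, and it was the only one of the 6 tested that changed by more than 2-fold. It gave 14.7, 13.8, 12.4 and 15.7 CPM after 2D priming and 39.2, 41.0, 40.9 and 36.5 CPM after 3D priming, a log2 fold change of 1.48 with SE 0.0728 (adjusted p = 1.1e-07 in edgeR). F7 lies at chr13:113105788-113120685 on GRCh38, and its downstream neighbour, F10, starts 2.11 kb from its end and encodes factor X, a substrate of activated factor VII. F10 gave 137, 151, 154 and 156 CPM and then 157, 145, 156 and 125 CPM. These values overlap, and the log2 fold change was -0.03 with SE 0.0731 (adjusted p = 0.70 in edgeR). F7 counts per F10 count ran from 0.0806 to 0.107 after 2D priming and from 0.249 to 0.291 after 3D priming, 2.86-fold higher in 3D-primed cells (two-sided exact permutation test, p = 0.029, adjusted p = 0.048 over 5 ratios). PROZ, the third gene of this cluster, encodes protein Z and lies 9.12 kb beyond F10. It rose from 6.06 ± 1.06 to 8.58 ± 0.886 CPM (SD, n = 4), 0.50 on the log2 scale (edgeR, adjusted p = 0.0071).

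F2, which encodes prothrombin, was the most abundant of the vitamin K-dependent factors, at 390 ± 15.3 CPM per kb of exon after 2D priming and 383 ± 18.1 after 3D priming. Its libraries ran from 731 to 794 CPM and from 715 to 798 CPM, and no difference was detected (log2 fold change -0.03 with SE 0.0457, and adjusted p = 0.65 in edgeR). PROC encodes protein C, the protease that inactivates factors V and VIII. It gave 139, 145, 144 and 149 CPM after 2D priming and 128, 124, 129.9 and 114 CPM after 3D priming, and so fell by 0.22 on the log2 scale, with adjusted p = 0.0022 in edgeR. PROS1, which encodes its cofactor protein S, gave 94.5, 92.6, 84.7 and 91.5 CPM and then 100.3, 106, 96.2 and 103 CPM. This is the opposite direction, at 0.16 on the log2 scale (edgeR, adjusted p = 0.012). The shifts in PROC and PROS1 are small beside that of F7, but neither gene's groups overlap. The pseudogene of PROS1, PROS2P, had no counts.

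The enzymes that act on these factors moved in opposite directions. GGCX encodes the gamma-glutamyl carboxylase that modifies the glutamates, and VKORC1 encodes the reductase that returns vitamin K to its active form and is the target of warfarin. GGCX gave 83.3, 88.0, 75.3 and 82.8 CPM after 2D priming and 145, 134, 127 and 139.5 CPM after 3D priming, 1.66-fold more (log2 fold change 0.73 and adjusted p = 1.9e-06 in edgeR). VKORC1 gave 168, 179.6, 185 and 170.5 CPM and then 103, 93.7, 90.8 and 88.9 CPM, and fell by 0.90 on the log2 scale (SE 0.0546 and adjusted p = 3.7e-07 in edgeR). Per kb of exon, VKORC1 was still the more abundant in 3D-primed cells, at 112 ± 7.62 against 18.1 ± 1.01 CPM per kb. The vitamin K-dependent factors, F9 included, together had 13.5, 13.6, 15.8 and 14.7 counts for each GGCX count after 2D priming and 8.50, 8.78, 9.56 and 7.91 after 3D priming. This ratio was 1.66-fold higher in 2D-primed cells, with no overlap (two-sided exact permutation test, p = 0.029, adjusted p = 0.048 over 5 ratios). The factors, without F9, took 0.117% of all counts after 2D priming and 0.119% after 3D priming. The ratio thus mostly restates the rise of GGCX and is not a separate result.

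A list of 15 further genes of the vitamin K cycle and other Gla proteins, the proteins that carry carboxylated glutamate, gave 11 that were tested. Of these, 4 were called higher and 3 lower, against 32.4% and 31.6% of all genes tested. Their median log2 fold change was 0.00. GAS6, MGP, BGLAP and PRRG3 were below the filter. FURIN, a protease that cleaves propeptides in the secretory pathway, fell from 72.7 ± 3.42 to 41.0 ± 2.77 CPM (log2 fold change -0.83 and adjusted p = 6.8e-07 in edgeR). AIFM2, an oxidoreductase that can reduce vitamin K, fell from 93.8 ± 6.78 to 53.9 ± 1.90 CPM (adjusted p = 7.9e-07 in edgeR). CYP4F2, an enzyme of vitamin K breakdown, rose from 1.33 ± 0.0633 to 5.27 ± 0.8 CPM (log2 fold change 1.98 and adjusted p = 1.3e-06 in edgeR), a value that is uncertain because close paralogs could share its reads.

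Among cofactors and crosslinking genes, F13B had the largest log2 fold change of all 35. It lies at chr1:197038741-197067260 on GRCh38 and encodes the carrier subunit of factor XIII, the transglutaminase that crosslinks fibrin. In 2D-primed cells it was near the limit of detection, with 8, 18, 10 and 12 counts, or 0.367, 0.778, 0.407 and 0.506 CPM. The 3D-primed libraries held 150, 149, 191 and 132 counts, or 5.66, 6.60, 6.85 and 5.24 CPM. The difference was 11.7-fold (log2 fold change 3.55 with SE 0.217, and adjusted p = 4.0e-07 in edgeR), with low counts in 2D-primed cells behind it. F13A1, the gene of the catalytic subunit, had no counts in any library.

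F5, which encodes factor V, the cofactor that speeds the formation of thrombin, went the other way. It gave 498, 511, 471 and 449 CPM after 2D priming and 294, 270.1, 322 and 295 CPM after 3D priming, and fell by 0.71 on the log2 scale, with adjusted p = 3.3e-06 in edgeR. F8, the gene of factor VIII, which is made mainly by endothelial cells, had 8 to 20 counts in each library. The log2 fold change was -0.53 with SE 0.312 (adjusted p = 0.16 in edgeR), so that a difference was not detectable at this depth.

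Both proteins are carried out of the endoplasmic reticulum by a receptor made of LMAN1 and MCFD2, and these genes too moved in opposite directions. MCFD2 gave 312, 301, 288 and 293 CPM after 2D priming and 418, 429.6, 416 and 429 CPM after 3D priming, a log2 fold change of 0.50 with adjusted p = 1.3e-06 in edgeR. LMAN1 gave 488, 497, 516 and 484 CPM and then 389, 387, 401 and 377 CPM, and fell by 0.35 on the log2 scale, with adjusted p = 1.5e-05 in edgeR. Of 13 further genes of export from the endoplasmic reticulum, 11 were tested (median log2 fold change -0.12). Of these, 4 were called higher and 6 lower, against 32.4% and 31.6% of all genes tested. MIA2, which helps large cargo to leave, rose by 0.54 on the log2 scale, from 168 ± 3.33 to 244 ± 5.33 CPM (adjusted p = 5.1e-07 in edgeR). SEC24B and SEC23A, subunits of the COPII vesicle coat, fell by 0.62 and 0.44 on the log2 scale (adjusted p = 5.7e-07 and 1.3e-06 in edgeR).

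The 4 genes of the contact system were each called higher in 3D-primed cells, as were 32.4% of all genes tested. This system starts coagulation at surfaces and releases bradykinin. F12, which encodes factor XII, gave 5.09, 6.48, 5.74 and 7.43 CPM after 2D priming and 14.4, 9.87, 11.4 and 10.4 CPM after 3D priming (log2 fold change 0.90 with SE 0.144, and adjusted p = 3.0e-04 in edgeR). F11, the gene of factor XI, gave 43.0, 38.6, 37.2 and 44.8 CPM and then 56.4, 52.6, 50.4 and 55.0 CPM (0.39 on the log2 scale and adjusted p = 3.3e-04 in edgeR). In both genes the groups lie apart.

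KLKB1 encodes prekallikrein, and it is a paralog of F11 that lies 7.72 kb from it on chromosome 4 of GRCh38. It gave 1.19, 1.25, 1.06 and 1.27 CPM after 2D priming and 3.06, 2.52, 3.66 and 1.63 CPM after 3D priming, from 26 to 102 counts per library. The 3D-primed libraries varied, with replicate 4 near the 2D-primed values, and the log2 fold change was 1.19 with SE 0.242 (adjusted p = 0.0015 in edgeR). Whether KLKB1 rose more than F11 was not settled, as the ratio of their counts ran from 0.0282 to 0.0331 after 2D priming and from 0.0299 to 0.0728 after 3D priming (two-sided exact permutation test, p = 0.057, adjusted p = 0.071 over 5 ratios). KNG1, the gene of kininogen, gave 6.55, 7.82, 5.82 and 6.84 CPM and then 8.83, 9.47, 8.85 and 7.27 CPM. Its groups overlap, and its log2 fold change of 0.35 (edgeR, adjusted p = 0.019) lost its call without 2D-primed replicate 3 (adjusted p = 0.053 in edgeR) and without 3D-primed replicate 2 (adjusted p = 0.062 in edgeR).

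**Figure D4:**
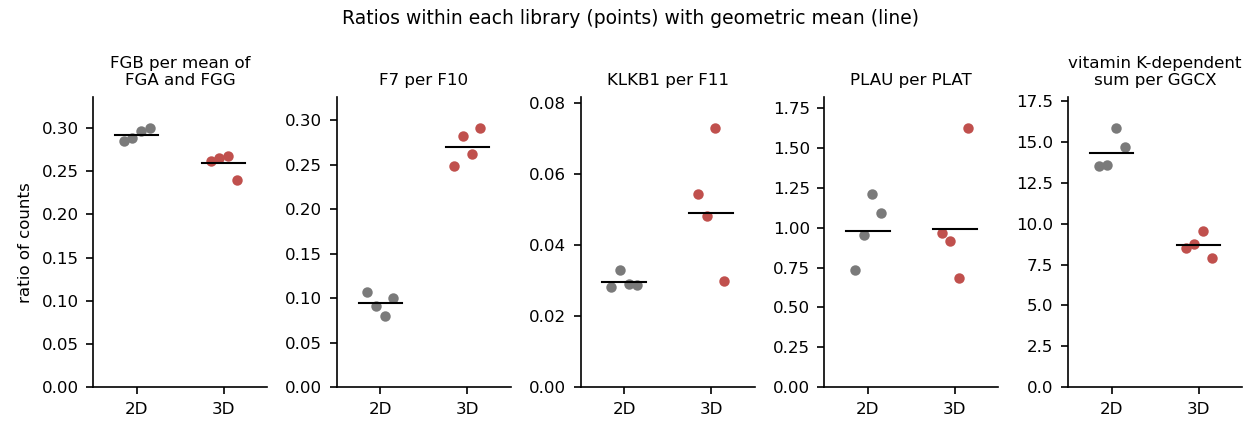
Ratio of counts within each library (y axis, from 0) for 5 pairs or groups of coagulation genes, with 2D-primed libraries in grey, 3D-primed in red and the geometric mean as a line. The groups lie apart for FGB per mean of FGA and FGG, for F7 per F10 and for vitamin K-dependent factors per GGCX, and they overlap for KLKB1 per F11 and PLAU per PLAT.

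The inhibitors of coagulation also split. SERPINC1, which encodes antithrombin, the main inhibitor of thrombin and factor Xa, gave 67.7, 73.8, 60.8 and 75.4 CPM after 2D priming and 204, 177, 172 and 189 CPM after 3D priming. Every 3D-primed library thus held more than 2 times the highest 2D-primed level, and the log2 fold change was 1.42 (adjusted p = 1.7e-07 in edgeR). TFPI encodes tissue factor pathway inhibitor, which blocks factor VIIa and factor Xa. It gave 531, 507, 514 and 502 CPM and then 794, 754, 756 and 775 CPM, 1.5-fold more (log2 fold change 0.58 and adjusted p = 4.1e-07 in edgeR).

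SERPIND1, the gene of heparin cofactor II, a thrombin inhibitor, was the most abundant coagulation gene per kb of exon in 2D-primed cells, at 482 ± 9.93 CPM per kb. It gave 1037, 1089, 1068 and 1057 CPM after 2D priming and 754, 698, 761 and 662 CPM after 3D priming, and fell by 0.56 on the log2 scale, with adjusted p = 4.0e-06 in edgeR. SERPINA5, the protein C inhibitor, gave 821 to 873 CPM and then 804 to 846 CPM, with no difference detected (log2 fold change -0.06 with SE 0.0360, and adjusted p = 0.19 in edgeR). SERPINA10, which inhibits factor Xa with protein Z, varied more between libraries than the other inhibitors. It gave 23.2, 25.4, 23 and 12.8 CPM after 2D priming and 15.8, 29.9, 30.4 and 27.9 CPM after 3D priming, so that 1 library of each group lay well below the other 3. Its log2 fold change of 0.30 had SE 0.234 (adjusted p = 0.28 in edgeR).

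Of 8 further inhibitors, 7 were tested (median log2 fold change -0.14). Of these, 3 were called higher and 4 lower, against 32.4% and 31.6% of all genes tested. SERPINE2, protease nexin 1, fell from 97.0 ± 17.4 to 19.3 ± 4.72 CPM (log2 fold change -2.33 and adjusted p = 1.1e-06 in edgeR). C4BPA, which encodes a chain of a complement inhibitor, rose from 38.5 ± 0.596 to 62.2 ± 5.61 CPM (adjusted p = 4.8e-06 in edgeR). SERPING1, the C1 inhibitor that also blocks factor XIIa and kallikrein, fell from 7.53 ± 0.912 to 3.39 ± 0.331 CPM (adjusted p = 1.2e-05 in edgeR). Of 13 genes for initiation and receptors of coagulation proteases, 5 were tested (median log2 fold change 0.62). Of these, 3 were called higher and 2 lower, against 32.4% and 31.6% of all genes tested. F2RL1, a protease-activated receptor, fell by 1.25 on the log2 scale, with adjusted p = 3.3e-06 in edgeR, while the thrombin receptor F2R rose by 0.70 (adjusted p = 2.2e-05 in edgeR). F3, which encodes tissue factor, rose from 2.81 ± 0.507 to 4.75 ± 0.316 CPM (log2 fold change 0.76 and adjusted p = 0.0010 in edgeR).

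In fibrinolysis, PLG stood out. It lies at chr6:160702194-160754097 on GRCh38 and encodes plasminogen, the precursor of plasmin. It gave 18.9, 21.8, 17.1 and 27.6 CPM after 2D priming and 206, 188, 228 and 163 CPM after 3D priming. The lowest 3D-primed library was far above the highest 2D-primed one, and the difference was 9.20-fold (log2 fold change 3.20 with SE 0.149, and adjusted p = 8.0e-08 in edgeR). Per kb of exon, PLG went from 6.04 ± 1.30 to 55.6 ± 7.87 CPM per kb, which took it from rank 22 to rank 17 of the 35 genes. Near-identical genes could share its reads, but they had few counts, with 0 to 11 for LPA, 7 to 18 for PLGLB1, 1 to 7 for PLGLB2 and 0 to 4 for PLGLA per library, against 412 to 6371 for PLG.

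The genes of the plasminogen activators were barely expressed and did not change detectably. PLAU, the urokinase gene, had 19 to 49 counts per library, at 0.871 to 1.14 CPM after 2D priming and 0.753 to 1.95 CPM after 3D priming (log2 fold change 0.36 with SE 0.298, and adjusted p = 0.31 in edgeR). PLAT, the gene of tissue plasminogen activator, had 22 to 36 counts (log2 fold change 0.28 with SE 0.211, and adjusted p = 0.28 in edgeR). PLAU counts per PLAT count ran from 0.736 to 1.21 after 2D priming and from 0.683 to 1.62 after 3D priming, a difference of 0.02 on the log2 scale (two-sided exact permutation test, p = 0.97). The urokinase receptor gene PLAUR was low too, with 16 to 51 counts. It gave 1.6, 1.77, 2.08 and 1.31 CPM and then 0.641, 0.708, 0.753 and 0.635 CPM, so that the groups lie apart, and it fell by 1.30 on the log2 scale (SE 0.207 and adjusted p = 2.9e-04 in edgeR).

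The plasma proteins that slow fibrin breakdown differed little between the groups. SERPINF2, which encodes the plasmin inhibitor alpha-2-antiplasmin, gave 297, 336, 301 and 329 CPM after 2D priming and 394, 372, 349 and 357 CPM after 3D priming (log2 fold change 0.22 and adjusted p = 0.0049 in edgeR). CPB2 encodes a carboxypeptidase that protects fibrin from lysis. It gave 92.1, 87.4, 87.7 and 91.9 CPM and then 99.7, 96.4, 84.1 and 110.4 CPM, which overlap (log2 fold change 0.12 and adjusted p = 0.16 in edgeR). Without 3D-primed replicate 3, the lowest of its group, it passed the threshold at 0.18 (adjusted p = 0.013 in edgeR). HRG, a plasma protein that binds plasminogen and heparin, had 8 to 29 counts, and no difference was detectable (log2 fold change 0.05 with SE 0.405, and adjusted p = 0.92 in edgeR).

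Of 7 genes for plasminogen binding and matrix, 6 were called lower, where 31.6% of all genes tested were, and 1 was not called (median log2 fold change -0.89). S100A10, a plasminogen-binding partner of annexin A2, fell from 76.3 ± 4.62 to 40.7 ± 2.51 CPM (adjusted p = 4.9e-07 in edgeR). THBS1, thrombospondin 1, fell from 105 ± 11.5 to 40.9 ± 6.12 CPM (log2 fold change -1.37 and adjusted p = 2.1e-06 in edgeR), and TGM2, the tissue transglutaminase, fell by 0.64 on the log2 scale, with adjusted p = 4.4e-06 in edgeR.

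THPO encodes thrombopoietin, the liver hormone that drives platelet formation. It gave 6.92, 8.30, 6.43 and 8.31 CPM after 2D priming and 12, 10.7, 9.75 and 12 CPM after 3D priming, with no overlap (log2 fold change 0.56 and adjusted p = 8.9e-04 in edgeR). HGFAC, the protease that activates hepatocyte growth factor, gave 17.8, 16.4, 14.9 and 19.5 CPM and then 13.6, 15, 22.5 and 12.7 CPM. Replicate 3 of the 3D-primed group lay above all others, and the log2 fold change was -0.10 (adjusted p = 0.62 in edgeR). Without that library it was -0.32 (adjusted p = 0.017 in edgeR). Of 9 genes for activation of hepatocyte growth factor and clearance of thrombopoietin, 6 were tested (median log2 fold change -0.36). Of these, 2 were called higher and 3 lower, against 32.4% and 31.6% of all genes tested. SPINT1, an inhibitor of the HGFAC protease, fell from 21.1 ± 2.56 to 2.94 ± 0.607 CPM (log2 fold change -2.83 and adjusted p = 1.0e-07 in edgeR). HPN, the membrane protease hepsin, fell by 0.79 and ASGR1, a subunit of the asialoglycoprotein receptor, by 0.49 on the log2 scale (adjusted p = 3.9e-06 and 6.3e-06 in edgeR).

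Levels per length assume that transcript length was not already taken out of the deposited counts, which the sources used here do not state. Per kb of exon, the order of the most abundant genes changed between the groups. SERPIND1 (482 ± 9.93 CPM per kb), FGA (433 ± 18.8), F2 (390 ± 15.3), SERPINA5 (376 ± 10.6) and FGG (359 ± 11) led in 2D-primed cells. FGA (1399 ± 69.0) and FGG (1223 ± 75.1) led in 3D-primed cells, followed by F2 (383 ± 18.1), SERPINA5 (361 ± 7.91) and SERPIND1 (326 ± 21.5). F2 and SERPINA5 lay within the sum of their SDs of each other in both groups, as did SERPINA5 and FGG in 2D-primed cells, so that their order is not settled. With coding length in place of exon length, the order after 2D priming was SERPIND1 (709.9 CPM per kb), SERPINA5 (703), MCFD2 (682), TFPI (563), FGG (547), FGA (495) and F2 (416). After 3D priming it was FGG (1864), FGA (1599), MCFD2 (966), TFPI (844), SERPINA5 (676), FGB (490.5), SERPIND1 (480.2) and F2 (409). FGA and FGG thus led in 3D-primed cells with either length. By coding length, SERPIND1, SERPINA5 and MCFD2 lay within the sum of their SDs of each other in 2D-primed cells, and the places of MCFD2, TFPI and F2 depend on the length used. The lowest was F8 in both groups, at 0.0694 ± 0.0185 and 0.0481 ± 0.0117 CPM per kb.

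**Figure D5:**
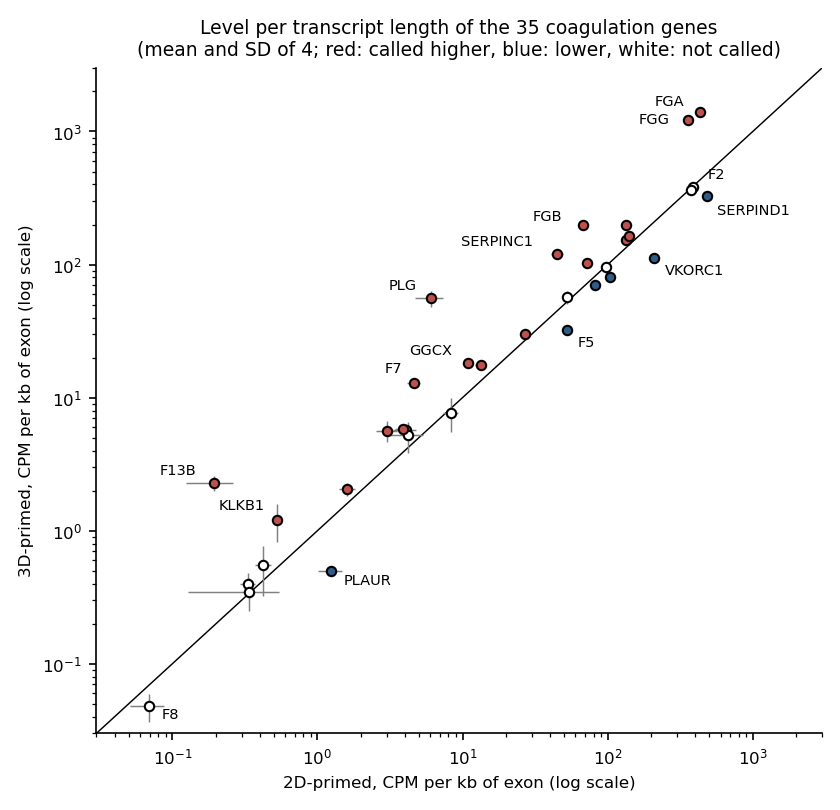
Level per kb of exon in 2D-primed (x axis) and 3D-primed cells (y axis), both on a log scale, for the 35 coagulation genes, as mean and SD of 4 libraries, with the line of equal levels. F13B, PLG, F7, SERPINC1 and the fibrinogen chains lie farthest above the line and PLAUR, VKORC1 and F5 farthest below it, over levels from about 0.0481 (F8) to 1399 (FGA) CPM per kb in 3D-primed cells.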

How the data were processed

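Polyadenylated RNA of 2D-primed and 3D-primed HepG2 cells was sequenced in read pairs, from 4 directional libraries of each group. The authors deposited estimated counts per gene, 1 file per library, obtained with Salmon on Ensembl cDNA of GRCh38 and summed with tximport. The values are unscaled whole numbers, and the tximport setting is not given in the sources used here, so transcript length may or may not enter them. Groups were taken from the sample titles.

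Identifiers were given symbols, positions and canonical exon lengths from GENCODE on GRCh38, and 29661 of 38032 had a symbol (78.0%). A minimum of 10 counts in 2 or more libraries was required, and the remaining genes were tested with glmQLFit and glmQLFTest of edgeR 4.0.16 after TMM scaling (R 4.3.3), with Benjamini-Hochberg adjustment over 13943 genes. The standard error is the log2 fold change divided by the square root of F. Ratios within a library (0.5 added to each count) were compared by exact permutation in scipy 1.17.1. Every member may be named, and from each of 6 lists of related genes the 3 tested genes with the smallest p. The members and lists were chosen with earlier results of these data known, and the motifs and the coding-length alternative were added afterwards.

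Libraries of a group differed beyond sampling noise (chi-square per degree of freedom 6.32 to 17.4), so no file was the same library deposited again. This does not tell separate cultures from repeat preparations of the same RNA. The scripts were tested on simulated data. DESeq2 1.42.0, limma 3.58.1 (voom), other scalings and filters, a replicate block and leaving out each library served as alternatives. The authors' other assays, and their liver and primary hepatocyte data, are not analysed here.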

Additional observations from a re-analysis of the deposited data

Results flagged for a closer look

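In 3 of the 70 groups of 4 values, for the 35 genes in both culture conditions, 1 library stood apart from the other 3 by more than the 95% critical value of Dixon's test, where chance alone flags about 5% of groups. F2 was low in 2D-primed replicate 1, at 731 CPM against 786 to 794 CPM in the rest of the group. PLAT was high in the same library, at 1.19 CPM against 0.936 to 0.971 CPM, which rests on 22 to 36 counts per library. HRG was high in 2D-primed replicate 2, at 1.25 CPM against 0.367 to 0.506 CPM, with 8 to 29 counts per library. None of these genes was called in edgeR with all 8 libraries.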

How the results depend on the processing

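Over 16 alternatives, the number of coagulation genes called higher ran from 17 to 19 and called lower from 6 to 7, and 28 of the 35 genes kept both their direction and their side of the threshold wherever they were tested. Over all genes, 8357 to 9070 were called. With 10 counts required in all 8 libraries, F8, F13B and HRG were not tested. Leaving out single libraries ended the calls of FGL1 and KNG1 and made those of CPB2 and HGFAC, as given with each gene. No called gene changed direction. Among uncalled genes, F2 turned to 0.03 with upper-quartile scaling and 0.00 with total counts and ran from -0.05 to 0.01 with each library left out, F10 turned to 0.02 with upper-quartile scaling and ran from -0.08 to 0.03, and HRG ran from -0.14 to 0.57. Scalings moved the median of all genes by at most 0.05 on the log2 scale. With each library left out, log2 differences ran from -0.19 to -0.14 for FGB per mean of FGA and FGG, 1.44 to 1.58 for F7 per F10, 0.53 to 0.96 for KLKB1 per F11, -0.21 to 0.20 for PLAU per PLAT and -0.77 to -0.68 for vitamin K-dependent factors per GGCX. Groups of 3 and 4 cannot pass an exact test at 0.05. With the replicate number as a block, 19 and 6 coagulation genes were called and 8490 genes in all, but deviations of libraries with the same number correlated at only -0.0579 to 0.107, so the numbers were not taken as pairs. Low counts limit F8, PLAU, PLAT, PLAUR, HRG and F13B. The cause of these changes was not tested.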

Other observations

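Some of the coagulation genes are neighbours in the genome, and differences between neighbours were tested for the fibrinogen chains, for F7 and F10, and for KLKB1 and F11, but not for HRG and KNG1, SERPINA10 and SERPINA5, or PROZ and F10. HRG and KNG1 lie 39.1 kb apart on chromosome 3 of GRCh38 with no protein-coding gene between them, and both had low levels, with a log2 fold change of 0.05 for HRG and 0.35 for KNG1. SERPINA10 and SERPINA5 lie 268 kb apart on chromosome 14, with 6 other protein-coding genes of the serpin family between them, and neither was called in edgeR. F7, F10 and PROZ share a stretch of chromosome 13, and F7 and PROZ, the outer genes, were called higher, while F10 between them was not called. The fibrinogen genes are the only cluster among the 35 in which all genes were called and rose by more than 2-fold.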
